A study of Mus musculus with 8 samples.

Results

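The genes described here are 10 transcription factors of the excitatory lineage of the cortex, from progenitor to young neuron: Neurog1, Neurog2, Neurod1, Neurod2, Neurod4, Nhlh1, Nhlh2, Bhlhe22, Eomes and Tcf4. They were chosen by symbol from the 48709 genes in the count files, and all 10 were found, each with 1 Ensembl identifier. RNA of whole cortical tissue was sequenced at postnatal day 1 (P1) from 4 control and 4 dcKO_Nex-Cre samples. The dcKO_Nex-Cre cortex carried floxed BAF155 (gene Smarcc1) and BAF170 (gene Smarcc2), which encode core subunits of the BAF chromatin remodeling complex, together with Nex-Cre. Controls were BAF155fl/+, BAF170fl/+ and Cre negative, so they held 1 floxed copy of each gene, and all mice were kept on a C57BL6/J background. Nex-Cre acts mainly in postmitotic excitatory neurons, and the same tissue also holds dividing progenitors, interneurons, glia and vessel cells in which both genes are left in place. The sample labels name only control and mutant, and the Cre line was taken from the methods of the study. Nothing in the labels says whether the samples came from separate animals or litters, so the p-values measure the spread between these samples.

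Basic helix-loop-helix (bHLH) factors bind DNA as dimers at short E-box motifs. Proneural factors such as Neurog1 and Neurog2 start neuronal differentiation in cortical radial glia, and Eomes (also called Tbr2) is the T-box factor that marks the intermediate progenitors that follow. Neurod1, Neurod4 and Nhlh1 mark the step from intermediate progenitor to newborn neuron, and Neurod2, Bhlhe22 and Nhlh2 are found in neurons after their last division. Tcf4 is an E protein, the broadly expressed type of bHLH partner with which the tissue-restricted factors pair, and Id proteins bind E proteins and keep them from DNA. In whole tissue, fewer cells of a type and less RNA per cell cannot be told apart.

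Neurod1 and Neurod2 are closely related factors whose ratio separated the groups in these libraries, so the DNA just before their start sites is shown. Each sequence is the 250 bases upstream of the RefSeq start, 5′ to 3′ on the gene's own strand (GRCm38.p6), with E-boxes (CANNTG, palindromic and therefore searched on both strands at once) in capitals. The Neurod1 window is chr2:79456637-79456886 on the minus strand, and the Neurod2 window is chr11:98329646-98329895 on the minus strand. The gene models given below reach into these windows, to chr2:79456751 for Neurod1 and chr11:98329648 for Neurod2. E-box positions are therefore counted from the RefSeq start only.
Neurod1: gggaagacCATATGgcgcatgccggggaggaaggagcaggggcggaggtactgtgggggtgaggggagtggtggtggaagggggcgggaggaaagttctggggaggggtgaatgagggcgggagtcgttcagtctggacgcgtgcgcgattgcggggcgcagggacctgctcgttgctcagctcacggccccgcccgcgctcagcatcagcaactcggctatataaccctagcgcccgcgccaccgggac
Neurod2: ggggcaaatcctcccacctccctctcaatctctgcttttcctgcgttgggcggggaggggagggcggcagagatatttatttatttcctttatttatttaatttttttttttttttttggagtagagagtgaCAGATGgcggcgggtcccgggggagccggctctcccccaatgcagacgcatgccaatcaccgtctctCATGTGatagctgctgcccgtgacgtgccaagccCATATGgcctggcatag
The Neurod1 window held 1 E-box, CATATG, whose first base lay at -242 from the start. The Neurod2 window held 3, CAGATG at -118, CATGTG at -51 and CATATG at -17. CAGATG is a form of the E-box often bound by neurogenic bHLH factors, and it was searched with its reverse complement. RefSeq windows were matched for 8 of the 10 genes (9 windows, since Neurod4 had a pair of overlapping ones), and 4 of the 9 held an E-box. The CAGATG form was in 3 of them, those of Neurod2, Nhlh1 and Nhlh2. Of all 32851 windows of the same length, 66.2% held at least 1 E-box and 14.4% held the CAGATG form. The windows of Neurog1, Neurog2, Eomes and Neurod4 held no match, which says only that these letters were not in these 250 bases.

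Libraries held 17958641 to 35191912 counts over genes, and 16287 genes passed the filter on low counts. Smarcc2 was 429 to 486 counts per 1000000 (CPM) in control and 241 to 292 in dcKO_Nex-Cre libraries, and fell (log2 fold change -0.81 ± 0.089 SE, adjusted p = 0.00267). Smarcc1 was 139 to 164 and 93 to 122 CPM, and fell by 0.53 ± 0.10 on the log2 scale (adjusted p = 0.0348), although the call was kept in 2 of 8 fits that left out 1 library and was lost with a replicate block (adjusted p = 0.0578) and among lane tag 2 libraries (adjusted p = 0.0752). Part of both messages remained in every dcKO_Nex-Cre library. Defining cortex genes were present in all libraries. The 8 genes, Neurod6 among them, summed to 1434 to 1748 CPM in control and 1145 to 1388 CPM in dcKO_Nex-Cre libraries, without overlap. Control 2 and dcKO_Nex-Cre 4 had the largest shares of mitochondrial counts, 6.87% and 6.15% against 2.33% to 4.24% in the others. Lane tags in the file names put all controls and 2 dcKO_Nex-Cre libraries in lane tag 2, and dcKO_Nex-Cre 3 and 4 in lane tag 8.

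None of the 10 factors changed at an adjusted p of 0.05 in either direction. The test covered 9 of them (edgeR), and at an unadjusted p of 0.05, 1 was higher (Neurod1) and 0 were lower. Over all 16287 genes, 0.375% passed the adjusted threshold as higher and 0.510% as lower, and 6.59% and 7.05% passed the unadjusted one. DESeq2 and limma-voom also called 0 of the factors, as did each of the 16 alternatives run, including the one without control 2 and dcKO_Nex-Cre 4, which called 1794 genes in all. Among the 9, 5 had a log2 fold change above 0 and 4 below, with a median of 0.046, beside 0.0043 for all genes. The median size of the change was 0.126, beside 0.134 for all genes. The summed level of all 10 was 1258 to 1587 CPM in control and 1385 to 1547 in dcKO_Nex-Cre libraries, so the dcKO_Nex-Cre range lay inside that of the controls. Most of this sum came from Tcf4, Bhlhe22 and Neurod2 (control means 819, 262 and 233 CPM). It therefore says little about the lower factors, such as Eomes (25.5 CPM) and Neurog2 (8.91 CPM).

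**Figure D1:**
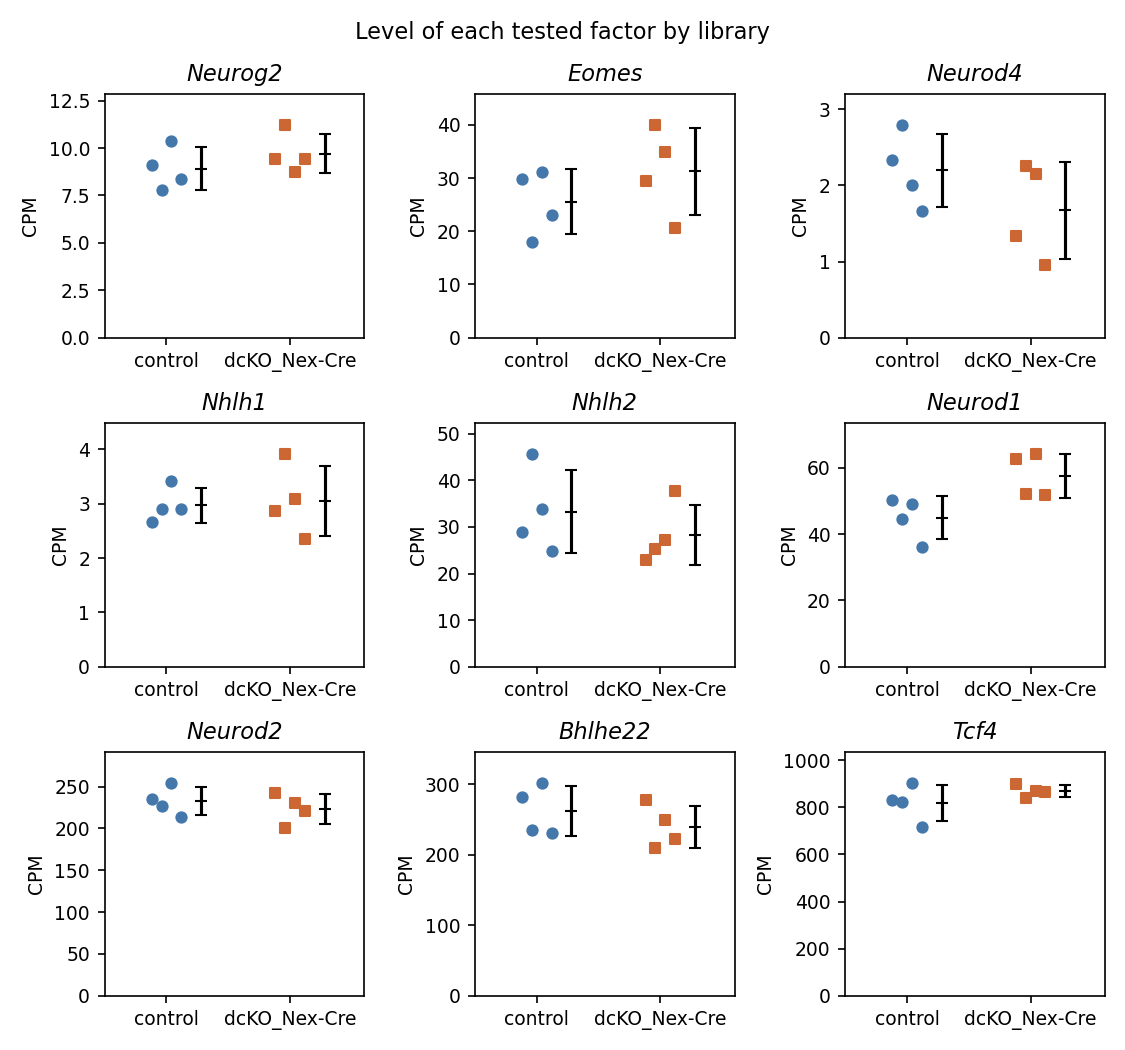
CPM of the 9 tested factors in each library, with controls as circles, dcKO_Nex-Cre libraries as squares, and the mean ± SD of 4 libraries beside them. Only in the Neurod1 panel do the groups not overlap, with controls at 36 to 50.2 CPM and dcKO_Nex-Cre libraries at 51.7 to 64.1 CPM.

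Neurog1 and Neurog2, the proneural factors at the head of the sequence, stood far apart in level. Neurog1 (ENSMUSG00000048904, mm10 chr13:56250478-56252163, minus strand) was close to absent from the libraries: it had 2, 0, 0 and 0 counts in controls 1 to 4, and 0, 3, 1 and 1 counts in dcKO_Nex-Cre 1 to 4. No difference was detectable at this depth, since 3 counts, the limit that a count of 0 allows, corresponds to 0.087 to 0.168 CPM per library, and the gene did not enter the test. Neurog2 (ENSMUSG00000027967, chr3:127633135-127635631, plus strand) was measured in every library, at 9.11, 7.77, 10.4 and 8.37 CPM in controls 1 to 4 and 9.45, 11.2, 8.75 and 9.43 CPM in dcKO_Nex-Cre 1 to 4. The groups overlapped, and the highest value was that of dcKO_Nex-Cre 2. The means were 8.91 ± 1.13 and 9.71 ± 1.06 CPM (SD, n = 4 each). The log2 fold change was 0.12 ± 0.13 (SE, adjusted p = 0.694), with a 95% interval of 89.4% to 133% of the control level.

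Eomes, which marks intermediate progenitors (ENSMUSG00000032446, chr9:118478212-118486132, plus strand), varied widely within each group. It was at 29.9, 18, 31.2 and 23.1 CPM in controls 1 to 4 and at 29.5, 39.9, 34.9 and 20.7 CPM in dcKO_Nex-Cre 1 to 4. The groups overlapped over most of their range, and the lowest libraries were control 2 and dcKO_Nex-Cre 4. The means were 25.5 ± 6.18 and 31.3 ± 8.22 CPM, a log2 fold change of 0.29 ± 0.21 (adjusted p = 0.546). The 95% interval ran from 89.3% to 168% of control, so a rise to 168% of control could not be told from none. Among lane tag 2 libraries the log2 fold change was 0.44, and leaving out single libraries gave 0.16 to 0.44. Its exons shared 118 bases with an antisense gene, Gm33460, which averaged 5.0 counts beside 691.1 for Eomes.

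Neurod4 and Nhlh1, transient factors of newborn neurons, were low. Neurod4 (ENSMUSG00000048015, chr10:130268152-130280240, minus strand) was at 2.34, 2.79, 2 and 1.67 CPM in controls and 1.33, 2.26, 2.15 and 0.954 CPM in dcKO_Nex-Cre libraries, on 17 to 59 counts. The groups overlapped, and dcKO_Nex-Cre 1 and 4 were the lowest of all 8 libraries. Its log2 fold change was -0.38 ± 0.28 (adjusted p = 0.565). On the log2 scale its interval, -0.99 to 0.24, was the widest of the 9 factors (50.3% to 118% of control). Without control 2 and dcKO_Nex-Cre 4 it was -0.075. Nhlh1 (ENSMUSG00000051251, chr1:172052292-172057573, minus strand) was at 2.66, 2.9, 3.42 and 2.91 CPM in controls and 2.87, 3.91, 3.09 and 2.36 CPM in dcKO_Nex-Cre libraries, on 42 to 102 counts. Here the highest and the lowest library were both dcKO_Nex-Cre, and the control range lay between them. The log2 fold change of Nhlh1 was 0.046 ± 0.18 (adjusted p = 0.933), and its sign turned without control 1 or without dcKO_Nex-Cre 2.

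Neurod1, a factor of the passage from intermediate progenitor to neuron (ENSMUSG00000034701, chr2:79452521-79456751, minus strand), was the 1 factor whose groups did not overlap. It was at 50.2, 44.7, 49 and 36 CPM in controls 1 to 4 and at 62.7, 52.2, 64.1 and 51.7 CPM in dcKO_Nex-Cre 1 to 4. Every dcKO_Nex-Cre library was above every control, but the gap between the nearest libraries, control 1 and dcKO_Nex-Cre 4, was smaller than the spread within either group. The means were 45 ± 6.42 and 57.7 ± 6.62 CPM, or 128% of control. The log2 fold change was 0.36 ± 0.12 with a 95% interval of 0.10 to 0.62, and it did not pass the test over all genes (unadjusted p = 0.0106, adjusted p = 0.213). An exact permutation test on Neurod1 alone (two-sided, 70 regroupings) gave p = 0.0286, the smallest that 4 against 4 libraries allow. Over all genes tested, 3.99% had every dcKO_Nex-Cre library above every control, 4.01% had every one below, and 13.6% had a larger log2 fold change in size. The adjusted p of Neurod1 was 0.109 with DESeq2 and 0.206 with limma-voom, and over all 16 alternatives it ranged from 0.0547 to 0.469. The log2 fold change was also 0.36 among lane tag 2 libraries and was 0.41 without control 2 and dcKO_Nex-Cre 4. Neurod1 shares 201 exon bases with Cerkl on the same strand, which averaged 12.9 counts beside 1238.2 for Neurod1.

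Neurod2 and Bhlhe22, factors of postmitotic neurons, in which Nex-Cre is active, did not differ detectably between the groups. Neurod2, which acts in maturing excitatory neurons (ENSMUSG00000038255, chr11:98325415-98329648, minus strand), was at 235, 227, 254 and 214 CPM in controls and 242, 200, 230 and 221 CPM in dcKO_Nex-Cre libraries. The groups overlapped, with the lowest value in dcKO_Nex-Cre 2 and the highest in control 3. This gave a log2 fold change of -0.059 ± 0.085 (adjusted p = 0.782), and its 95% interval of 84.3% to 109% of control was among the narrowest of the 9. Bhlhe22, a repressor needed for area identity and axon growth of cortical neurons (ENSMUSG00000025128, chr3:18054174-18057517, plus strand), was at 281, 235, 301 and 230 CPM in controls and 277, 210, 249 and 222 CPM in dcKO_Nex-Cre libraries. Its ranges overlapped, with a log2 fold change of -0.13 ± 0.11 (adjusted p = 0.643) and an interval of 76.9% to 109% of control.

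Nhlh2, a neuronal bHLH factor (ENSMUSG00000048540, chr3:102010076-102015492, plus strand), was at 29, 45.6, 33.8 and 24.8 CPM in controls and 22.9, 25.2, 27.3 and 37.7 CPM in dcKO_Nex-Cre libraries. The highest libraries were control 2 and dcKO_Nex-Cre 4, the same pair in which Eomes was lowest, and the groups overlapped. The log2 fold change of Nhlh2 was -0.24 ± 0.19 (adjusted p = 0.596), with an interval of 63% to 114% of control. It was -0.47 among lane tag 2 libraries and -0.047 to -0.40 when single libraries were left out. Tcf4, the E protein (ENSMUSG00000053477, chr18:69343356-69689079, plus strand), had the highest CPM of the 10. It was at 833, 824, 902 and 717 CPM in controls and 899, 840, 870 and 866 CPM in dcKO_Nex-Cre libraries, and all 4 of the latter fell within the control range. Its log2 fold change was 0.085 ± 0.085 (adjusted p = 0.678), with an interval of 93.2% to 121% of control.

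**Figure D2:**
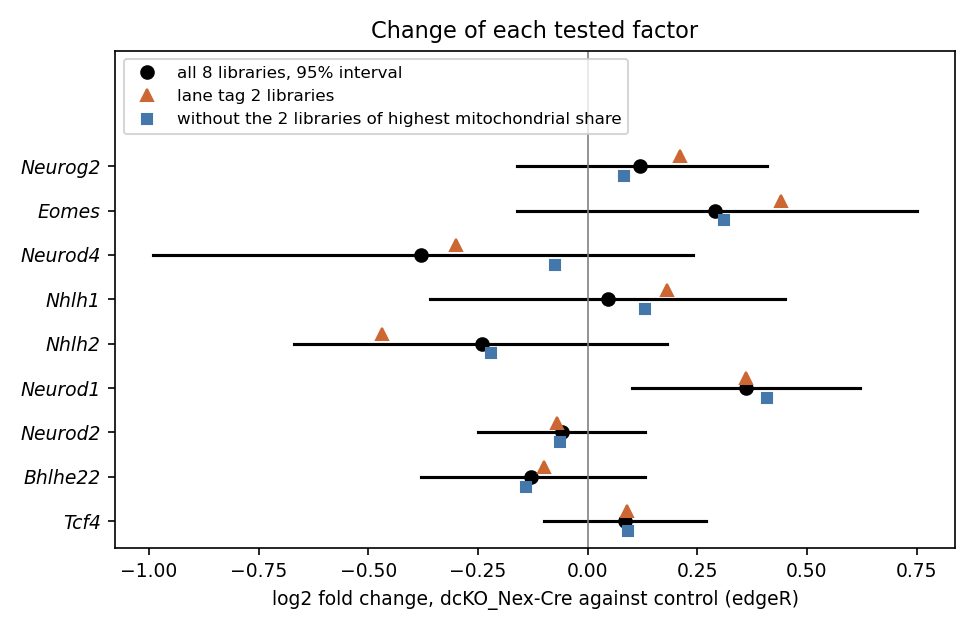
Log2 fold change of the 9 tested factors in dcKO_Nex-Cre against control, with circles and 95% intervals from all 8 libraries (edgeR), triangles from lane tag 2 libraries, and squares without control 2 and dcKO_Nex-Cre 4. The unadjusted interval of Neurod1, 0.10 to 0.62, lies above 0, and the intervals of the other 8 include 0.

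Levels were compared between genes as CPM per kilobase of exon, which takes gene length into account. In control libraries Bhlhe22 (78.2 ± 10.4 CPM per kilobase, SD) and Neurod2 (74 ± 5.3) were the highest, with overlapping ranges. Tcf4 followed at 29.9 ± 2.79 and Neurod1 at 16.5 ± 2.35, each clear of its neighbours. Nhlh2 (6.15 ± 1.66) and Eomes (6.15 ± 1.49) did not differ beyond their spread, and the lowest Eomes library, 4.32, overlapped the range of Neurog2 (4 ± 0.506, up to 4.67). Nhlh1 (1.21 ± 0.131), Neurod4 (0.658 ± 0.143) and Neurog1 (0.0136 ± 0.0272) were the lowest, and their ranges did not overlap. At P1 the neuronal factors Bhlhe22 and Neurod2 were above Eomes and Neurog2. The length used changed the place of Tcf4, because its many exons sum to 27382 bases while its longest transcript has 8577. With the longest transcript, Tcf4 had the highest mean, 95.5 CPM per kilobase, but its range (83.6 to 105) overlapped that of Bhlhe22 (68.7 to 90). Nhlh2 was then at 8.45 (6.29 to 11.6) and Eomes at 7.18 (5.04 to 8.77). With this length neither overlapped Neurog2 (3.49 to 4.67). In dcKO_Nex-Cre libraries Neurod1 was at 21.1 ± 2.43 and Eomes at 7.52 ± 1.98 CPM per kilobase of all exons, and Nhlh2 at 5.22 ± 1.21.

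The NeuroD family also includes Neurod6, the gene whose other name, Nex, the Cre line carries. Neurod6 fell from 645 ± 84.4 to 387 ± 48 CPM, a log2 fold change of -0.74 ± 0.12 (adjusted p = 0.0192). Nex-Cre was made by placing Cre at the Neurod6 gene itself, so the Cre copy and the loss of BAF155 and BAF170 cannot be told apart in that value. Log2 ratios of CPM within a library were taken for all 6 pairs of family members. They were chosen after the values were seen, and are a description. Exact permutation gave p = 0.0286, or 0.0571 adjusted over the 6 ratios, for each ratio whose groups did not overlap. Groups of 4 that do not overlap always give that p, so it adds nothing to the separation. The ratios with overlapping groups had adjusted permutation p of 0.0857 to 0.543. Neurod1 to Neurod2 was -2.23, -2.34, -2.37 and -2.57 in controls and -1.95, -1.94, -1.84 and -2.10 in dcKO_Nex-Cre libraries. The groups did not overlap, with means of -2.38 ± 0.14 and -1.96 ± 0.11 and a difference of 0.42. The difference was 0.44 among lane tag 2 libraries and 0.36 to 0.47 without single libraries.

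The ratio of Neurod2 to Neurod6 also had groups that did not overlap, with means of -1.47 ± 0.10 in control and -0.79 ± 0.13 in dcKO_Nex-Cre libraries (difference 0.68). The ratio of Neurod1 to Neurod6 differed by 1.10, again without overlap. Both of these ratios hold Neurod6, whose own groups did not overlap. Likewise, Neurod1 to Neurod2 holds Neurod1, whose own groups did not overlap. How often ratios of other gene pairs separate the groups was not examined. The 3 ratios with Neurod4 overlapped between groups, at differences of 0.82 for Neurod1 to Neurod4, 0.40 for Neurod2 to Neurod4 and 0.28 for Neurod4 to Neurod6. A ratio by itself shows unequal change of its terms and not which of them moved. Taken singly, the log2 fold change was 0.36 for Neurod1 and -0.74 for Neurod6, both with groups that did not overlap. It was -0.059 for Neurod2 and -0.38 for Neurod4, whose groups overlapped.

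**Figure D3:**
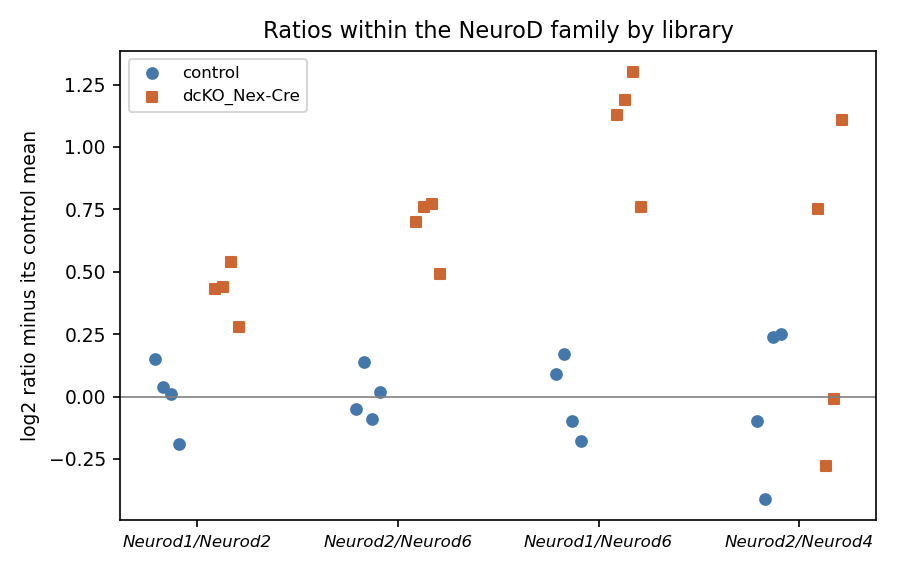
Log2 ratios of CPM within the NeuroD family in each library, each minus its control mean, with controls as circles and dcKO_Nex-Cre libraries as squares. The groups do not overlap for Neurod1 to Neurod2, Neurod2 to Neurod6 and Neurod1 to Neurod6, with mean differences of 0.42, 0.68 and 1.10, and they overlap for Neurod2 to Neurod4.

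Beside Neurod2 on chromosome 11 lies Ppp1r1b, which encodes the DARPP-32 phosphoprotein of striatal neurons, with 18755 bases between the gene models. Ppp1r1b rose from 30.4 ± 2.26 to 59 ± 19.7 CPM (log2 fold change 0.96, adjusted p = 0.04) while Neurod2 gave -0.059. The 5 striatal genes to which it belongs summed to 206 CPM in dcKO_Nex-Cre 2, against 68.3 to 96 in the other libraries, and their part in the result was not tested. Apart from dcKO_Nex-Cre 2, the mutant values of Ppp1r1b ran from 46.1 to 52.1 CPM, all above the controls at 28.5 to 33.5. The call was lost with limma-voom, without the filter, with a replicate block and without control 2 and dcKO_Nex-Cre 4.

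The partners and inhibitors of these factors were examined as a list of 6 genes, the E proteins Tcf3 and Tcf12 and the inhibitors Id1, Id2, Id3 and Id4. Of the 6, 0 rose and 1 fell, Id2, and the median log2 fold change was -0.084. Id2 was at 437, 407, 458 and 386 CPM in controls and at 250, 239, 258 and 353 CPM in dcKO_Nex-Cre libraries. All controls were above all dcKO_Nex-Cre libraries, and dcKO_Nex-Cre 4 stood nearest to them. Id2 thus gave -0.62 ± 0.12 on the log2 scale (adjusted p = 0.0457), a call kept in 1 of 8 fits that left out 1 library and lost with a replicate block. Id1 gave -0.28 (adjusted p = 0.349), Id3 -0.17 (adjusted p = 0.455) and Id4 0.021 (adjusted p = 0.963). Tcf12 gave 0.15 (adjusted p = 0.472), and Tcf3 was at a mean of 66.4 CPM in both groups. None of the 7 Hes and Hey genes was called (0 also at an unadjusted p of 0.05, median 0.053). Most of them encode repressors that act downstream of Notch against proneural genes, while Hes6 counters Hes1 and favours differentiation. Hes6 gave 0.084 (adjusted p = 0.721) and Hey2 0.11 (adjusted p = 0.82). The direction of Hes6 turned among lane tag 2 libraries, without control 2 and dcKO_Nex-Cre 4 together, and without 1 single library.

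Of 14 other bHLH genes, 7 were tested, 0 rose and 1 fell, Neurod6. At an unadjusted p of 0.05, Bhlhe40 and Olig2 were higher and the median log2 fold change was 0.10. DESeq2 called Bhlhe40, and no other alternative did. Neurog3 and Atoh1, proneural genes of other tissues, had 0 counts in all libraries.

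Genes of the cell stages in which the factors work were examined in the same way. Of 14 radial glia genes, 0 rose and 0 fell, with 2 lower at an unadjusted p of 0.05 and a median of 0.0018. Those 2 were Fabp7, a lipid-binding protein of radial glia (1584 ± 114 and 1123 ± 206 CPM, log2 fold change -0.50, adjusted p = 0.113), and Hopx (-0.35, adjusted p = 0.131). DESeq2 called both as lower. Fabp7 was also called as lower with no filter and among lane tag 2 libraries (log2 fold change -0.73, adjusted p = 0.0192). The same held without dcKO_Nex-Cre 4, and without control 2 and dcKO_Nex-Cre 4 together, but not in the other alternatives. Pax6, the radial glia factor that activates Neurog2, was at 37.9 ± 3.62 and 37.2 ± 4.81 CPM.

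Of 10 intermediate progenitor genes other than Eomes, 0 passed in either direction. A log2 fold change above 0 was found in 8, beside 50.9% of all genes tested, with a median of 0.095. Dll3, a Notch pathway ligand of newly committed cells, was the 1 with an unadjusted p under 0.05. It was at 8.01, 6.4, 8.26 and 6.96 CPM in controls and at 9.83, 11.7, 10.3 and 10.5 CPM in dcKO_Nex-Cre libraries. The groups did not overlap, and the log2 fold change of 0.51 ± 0.12 missed the threshold (adjusted p = 0.0892). It passed with DESeq2, without dcKO_Nex-Cre 4, and without control 2 and dcKO_Nex-Cre 4 together, but not in the other alternatives. Btg2, an antiproliferative gene of neurogenic divisions, gave 0.21 (adjusted p = 0.487).

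Of 12 genes of dividing cells, 0 were called in either direction (0 also at an unadjusted p of 0.05). A log2 fold change above 0 was found in 10, beside 50.9% of all genes tested. The median was 0.15, and 0.053 without dcKO_Nex-Cre 2. Mki67 gave 0.39 (adjusted p = 0.399) and Top2a 0.34 (adjusted p = 0.439). The list's summed level was 303 to 354 CPM in controls and 305, 456, 401 and 345 CPM in dcKO_Nex-Cre 1 to 4. Of these, dcKO_Nex-Cre 1 and 4 lay within the control range. The highest of the 8 was dcKO_Nex-Cre 2, the library with the highest Neurog2, Eomes and Nhlh1.

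Of 14 young neuron genes, 0 were called, 2 were higher and 1 lower at an unadjusted p of 0.05, and the median was 0.032. Elavl4, a neuronal RNA-binding protein, gave 0.23 (adjusted p = 0.228) and Gap43, a growth cone protein, gave -0.30 (adjusted p = 0.279). Elavl4 was called as higher only without control 2 and dcKO_Nex-Cre 4 (adjusted p = 0.0432). Of 12 projection neuron identity genes, 0 were called and 1 was lower at an unadjusted p of 0.05, with a median of 0.12. That gene was Fezf2, the selector of deep-layer subcerebral neurons (63 ± 11.2 and 43 ± 8.63 CPM, log2 fold change -0.55, adjusted p = 0.149), and DESeq2 and the fit with a replicate block called it as lower. Cux1, an upper-layer factor, gave 0.16 (adjusted p = 0.377). No difference between these lists was tested.

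**Figure D4:**
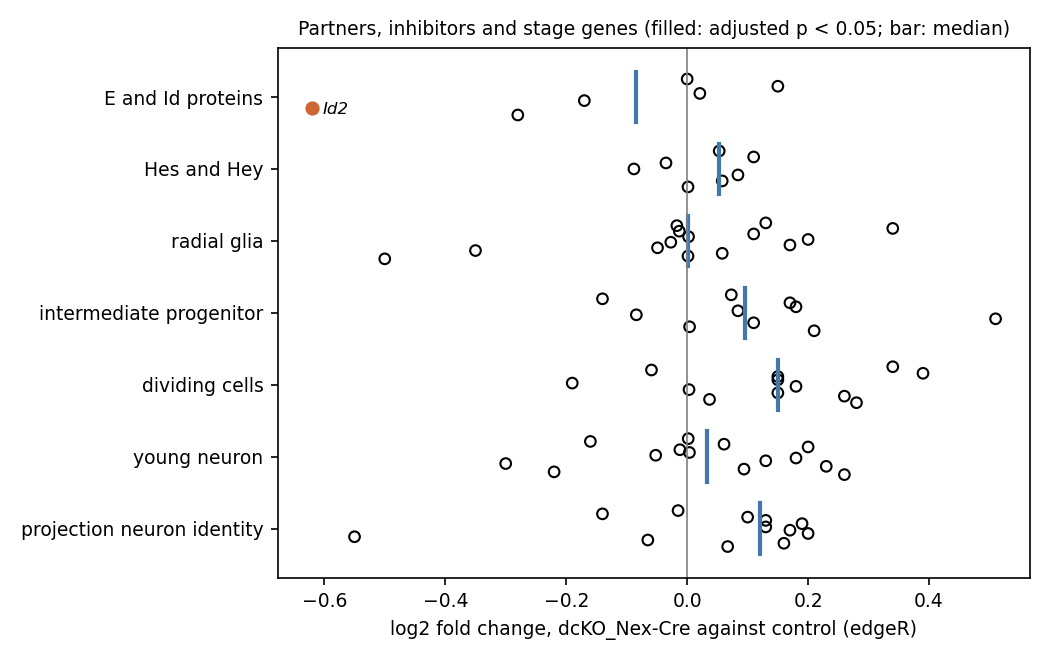
Log2 fold change (dcKO_Nex-Cre against control, edgeR) of each tested gene in 7 lists, with 1 circle per gene, filled at an adjusted p under 0.05, and a bar at the list's median. Id2 is the 1 filled gene, at -0.62, and the medians run from -0.084 for E and Id proteins to 0.15 for dividing cells.

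Single libraries stood apart in ways that crossed the groups. Control 2 and dcKO_Nex-Cre 4 had the lowest Eomes (18 and 20.7 CPM) and the highest Nhlh2 (45.6 and 37.7 CPM) of their groups. The 6 genes of Cajal-Retzius cells, early-born neurons of the cortical surface, summed to 964 and 767 CPM in these libraries against 460 to 728 CPM in the other 6, and the same libraries had the largest mitochondrial shares. None of these 6 genes was called between the groups (0 also at an unadjusted p of 0.05, median -0.16). Whether the cells sampled or RNA quality had a part in the Eomes and Nhlh2 values was not tested. Without both libraries the log2 fold change was 0.31 for Eomes and -0.22 for Nhlh2, close to those of all libraries.

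Markers of other tissues and cells were examined beside the factors. The 5 choroid plexus genes summed to 739, 22.3, 94.1 and 1335 CPM in controls and to 15.4, 557, 8.25 and 3.99 CPM in dcKO_Nex-Cre libraries. Of the latter, dcKO_Nex-Cre 2 lay within the control range and the others lay below it. Of 5 oligodendrocyte precursor genes, 1 rose, Cspg4 (17.8 ± 1.11 to 26.2 ± 3.24 CPM, log2 fold change 0.56, adjusted p = 0.0355), and 4 were higher at an unadjusted p of 0.05. Their summed level was 173 to 252 CPM in controls and 252 to 308 CPM in dcKO_Nex-Cre libraries. Of 6 microglia genes, 1 rose, C1qb (log2 fold change 0.46, adjusted p = 0.0422), with summed levels of 88 to 103 and 89.4 to 119 CPM. P2ry12, a microglial purine receptor, was lower without overlap (12.1 ± 0.318 and 8.12 ± 1.2 CPM, log2 fold change -0.57, adjusted p = 0.0596). It was called as lower by DESeq2, with no filter, without dcKO_Nex-Cre 4, and without control 2 and dcKO_Nex-Cre 4. With a replicate block the adjusted p was 0.0985 for Cspg4 and 0.143 for C1qb, and for C1qb it was 0.0704 among lane tag 2 libraries. Of the 8 cortex genes, 2 fell, Neurod6 and Emx1, a gene of pallial and cortical identity (log2 fold change -0.60, adjusted p = 0.0332). The Emx1 call was lost among lane tag 2 libraries and with a replicate block. When single libraries were left out, Neurod6 stayed called in 3 of 8 fits, Ppp1r1b in 2, and Id2, Emx1, Cspg4 and C1qb in 1, the fit without dcKO_Nex-Cre 4. The part of these markers in the Neurod1 values was not tested. The lists for interneurons (median -0.021), astrocytes (0.28), endothelium (0.16), blood (0.12), dentate gyrus (-0.059), olfactory bulb (-0.39), thalamus (-0.014) and choroid plexus (-1.76) had 0 genes called.

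**Figure D5:**
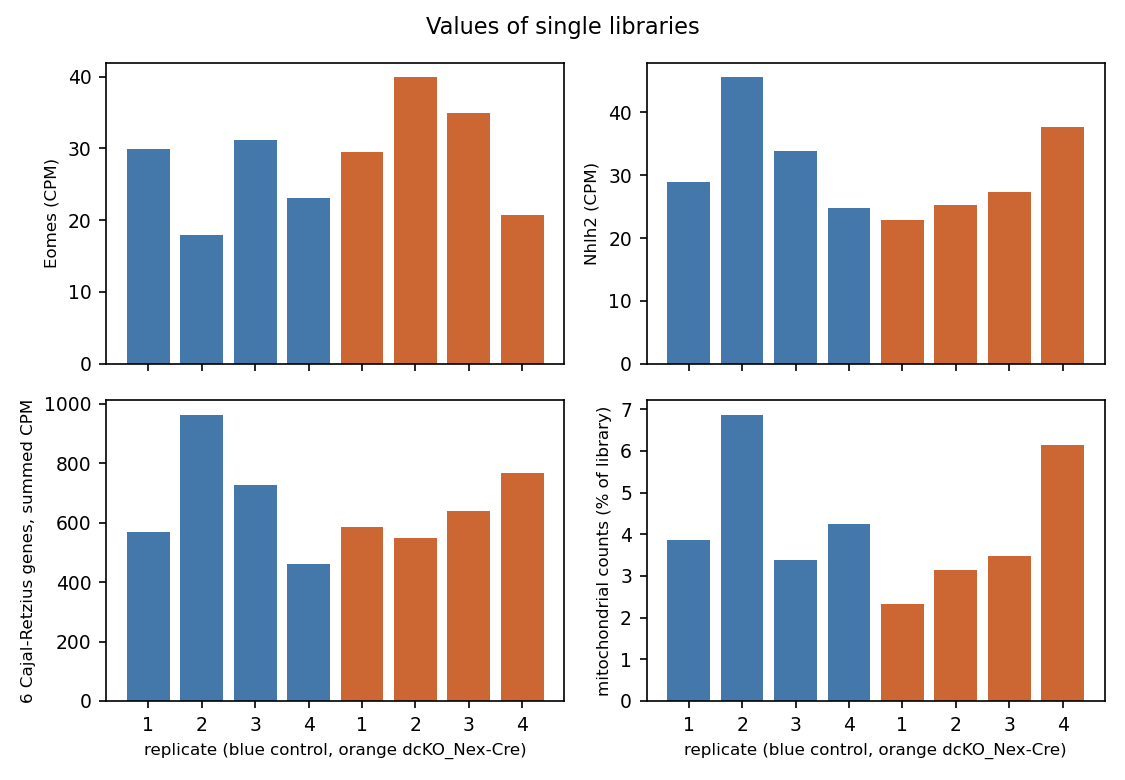
Eomes and Nhlh2 (CPM), the summed CPM of 6 Cajal-Retzius genes and the percent of mitochondrial counts in each library, with bars from 0, controls in blue and dcKO_Nex-Cre libraries in orange. Control 2 and dcKO_Nex-Cre 4 have the largest mitochondrial shares (6.87% and 6.15%), the lowest Eomes (18 and 20.7 CPM) and the highest Nhlh2 (45.6 and 37.7 CPM).

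The genes whose profile over the 8 libraries came nearest to that of a factor were found by the root mean square difference of centred log2 CPM, among genes with a similar spread. For Neurog2 they were Noc4l (0.0573), Chaf1b (0.0627) and 9130023H24Rik (0.0739), among 3939 genes compared. For Eomes they were Pcdhgb5 (0.0938), Uhrf1 (0.0945) and Lima1 (0.0948), among 2538. Those of Neurod1 were Zscan20 (0.088), Wars2 (0.0895) and Tox3 (0.102), among 3466, and those of Neurod2 were Abhd17c (0.0454), Gng2 (0.0456) and Pank2 (0.0459), among 2653. These distances describe 8 libraries that share group, depth and tissue composition.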

How the data were processed

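Raw read counts per gene were deposited by the authors, 1 file for each of 8 P1 cortex libraries (TruSeq RNA v2). The submitters' processing notes name mm10, and the aligner, counter and strand setting are not given in the sources used here. Groups followed the sample titles. Symbols and gene models came from GENCODE M21 (48349 of 48709 genes matched), and promoters from RefSeq (GRCm38.p6). Control and dcKO_Nex-Cre were compared with edgeR 4.0.16 (R 4.3.3, TMM, filterByExpr, robust quasi-likelihood F test) and Benjamini-Hochberg adjustment over all 16287 genes tested, at 0.05. The biological coefficient of variation was 0.143. CPM values are TMM-scaled, SDs are over 4 libraries and intervals are 95%. Single values were tested by exact permutation (scipy 1.17.1, 70 regroupings). The limit of 3 counts covers counting error only. Alternatives were DESeq2 1.42.0, its size factors in edgeR, limma-voom (limma 3.58.1), other filters, a replicate block, lane tag 2 libraries and leaving out libraries. Leaving out the 2 libraries with the most mitochondrial counts, and the NeuroD ratios with their alternatives, were chosen after seeing the data.

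The 10 factors and the gene lists were chosen with earlier results of these data known, so they are described by counts and medians with no test of a list. Named genes were the 10 factors, Smarcc1 and Smarcc2, the list genes with an adjusted p under 0.05, in 8 lists otherwise the 2 of smallest p, and for 4 factors the 3 nearest genes, compared with genes whose SD over libraries was 0.8 to 1.2 times that of the factor. Id1, Id3, Id4, Tcf3, Tcf12, Pax6, P2ry12, Bhlhe40, Olig2, Neurog3 and Atoh1 were named after their values were seen.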

Additional observations from a re-analysis of the deposited data

Results flagged for a closer look

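None of the 9 tested factors had a library far apart from the rest of its group. Neurog1, which was close to absent and did not enter the test, was not examined here. Of 62 groups of 4 libraries examined (29 genes, the library totals and the mitochondrial shares, in each group), 4 had 1 library whose gap to the nearest other exceeded Dixon's 95% critical value, and chance gives about 1 in 20. Id2 was at 353 CPM in dcKO_Nex-Cre 4, against 239 to 258 CPM in the other 3. Top2a was at 49.9 CPM in control 2, against 74.6 to 79.1 CPM. Elavl4 was at 191 CPM in control 1, against 179 to 181 CPM. Ppp1r1b was at 88.3 CPM in dcKO_Nex-Cre 2, against 46.1 to 52.1 CPM.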

How the results depend on the processing

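In each of the 16 alternatives, 0 of the 10 factors were called. Across these, 142 of 144 log2 fold changes of the factors kept their direction and side of the threshold, and the 2 exceptions were Nhlh1 without control 1 and without dcKO_Nex-Cre 2 (range without single libraries -0.09 to 0.15). The count of genes called over all genes, 61 higher and 83 lower, became 215 and 279 with DESeq2, 109 and 150 with no filter, and 21 and 33 with a replicate block. It became 140 higher among lane tag 2 libraries, and 896 and 898 without control 2 and dcKO_Nex-Cre 4. It ranged from 9 to 659 higher and 9 to 619 lower without single libraries: 1278 in all without dcKO_Nex-Cre 4, and 18 to 87 without any of the other 7. The cause was not tested. List genes called were 6, 12 with DESeq2, 2 with a replicate block, 19 without control 2 and dcKO_Nex-Cre 4, and 0 to 16 without single libraries. Hes6 turned to -0.0057 among lane tag 2 libraries and -0.042 without control 2 and dcKO_Nex-Cre 4, and ranged from -0.0093 to 0.14 without single libraries. With the longest transcript as length, Tcf4 was at 95.5 and Nhlh2 at 8.45 CPM per kilobase. Deviations of same-numbered samples correlated at 0.126, 0.0179, 0.135 and -0.138, so no pairing by number was seen. Such correlations cannot exclude pairing, on which the labels are silent. The replicate block moved the calls from 144 to 54, and not every sample correlated best with its own number. Depth limits Neurog1 and, at 17 to 59 counts, Neurod4.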
